A study of Homo sapiens with 6 samples.

Results

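The RefSeq non-coding transcripts of the Agilent catalogue were examined in REH cells with and without knockdown of the ETV6/RUNX1 fusion. Members were the catalogue probes, as opposed to the custom lncRNA probes of the same array, whose target accession begins with NR_, the RefSeq prefix of curated non-coding RNA. Small nucleolar RNA host genes (symbols starting SNHG, GAS5, ZFAS1) and microRNA host genes were left out, which removed 46 of 2135 probes. The remaining 2089 probes, of 57176 on the array, covered 1790 accessions. A symbol could be given to 1846 of them (1560 symbols), and 243 had none.

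The REH line was derived from a human leukemia of B-cell precursors (B-ALL), holds the ETV6/RUNX1 translocation and has lost its other ETV6 allele. All 6 samples were REH cells that received a lentiviral shRNA vector with GFP. In the 3 control samples the shRNA was non-targeting by the labels, and by the study's methods it was an ETV6 shRNA that left the fusion transcript untouched. In the 3 knockdown samples the shRNA was directed at the ETV6/RUNX1 fusion, through its ETV6 portion. Each sample was hybridized to 1 one-color array. The study calls the 3 samples of a group biological triplicates, without saying how their cultures were kept apart, and p-values measure the spread between these samples. The groups also differ in the hairpin itself.

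RefSeq non-coding transcripts are a mixed class. Long intergenic and antisense RNAs are often spliced like messenger RNAs but are not translated, and some act in the nucleus on chromatin, splicing or neighboring genes. Pseudogene transcripts come from copies of coding genes and often share most of their sequence with the parent gene. Small nucleolar and small Cajal body RNAs (snoRNA, scaRNA) guide the chemical modification of ribosomal and spliceosomal RNA, and the other structural RNAs include ribosomal RNA, 7SK and the signal recognition particle RNA. ETV6/RUNX1 joins part of the ETS family factor ETV6 to most of RUNX1 and keeps the DNA-binding domain of RUNX1.

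The promoters of the called members were read from RefSeq (GRCh38.p14), which gave 250 bases before and 50 after the annotated start for 7 of the 13 called members. The 3 members with the largest falls among those 7, and the 1 that rose, are shown 5′ to 3′ in the direction of transcription, with the bases from the annotated start onward in capitals. MIAT lies at chr22:26646179-26646478 on the plus strand, LINC00487 at chr2:6770262-6770561 on the minus strand, LINC00642 at chr14:90454980-90455279 on the plus strand and ATP6V0E2-AS1 at chr7:149873813-149874112 on the minus strand.

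MIAT: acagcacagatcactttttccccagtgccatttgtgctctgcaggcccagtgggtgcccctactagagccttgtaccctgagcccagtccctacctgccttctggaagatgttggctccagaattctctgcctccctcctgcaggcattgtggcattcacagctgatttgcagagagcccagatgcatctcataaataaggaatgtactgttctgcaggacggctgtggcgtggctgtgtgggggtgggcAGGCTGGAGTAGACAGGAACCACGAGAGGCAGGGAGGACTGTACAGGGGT
LINC00487: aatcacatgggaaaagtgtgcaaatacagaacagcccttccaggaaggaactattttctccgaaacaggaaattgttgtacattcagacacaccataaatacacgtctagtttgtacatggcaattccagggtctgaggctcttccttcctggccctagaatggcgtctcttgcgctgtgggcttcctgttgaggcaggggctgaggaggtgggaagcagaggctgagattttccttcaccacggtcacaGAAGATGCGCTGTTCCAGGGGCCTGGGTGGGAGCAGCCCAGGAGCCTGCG
LINC00642: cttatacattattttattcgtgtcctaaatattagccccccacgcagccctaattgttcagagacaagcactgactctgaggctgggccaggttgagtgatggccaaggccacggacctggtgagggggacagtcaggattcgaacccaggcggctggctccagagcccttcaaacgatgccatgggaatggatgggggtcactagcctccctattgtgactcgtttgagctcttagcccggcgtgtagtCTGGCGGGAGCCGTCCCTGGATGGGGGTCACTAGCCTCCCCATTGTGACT
ATP6V0E2-AS1: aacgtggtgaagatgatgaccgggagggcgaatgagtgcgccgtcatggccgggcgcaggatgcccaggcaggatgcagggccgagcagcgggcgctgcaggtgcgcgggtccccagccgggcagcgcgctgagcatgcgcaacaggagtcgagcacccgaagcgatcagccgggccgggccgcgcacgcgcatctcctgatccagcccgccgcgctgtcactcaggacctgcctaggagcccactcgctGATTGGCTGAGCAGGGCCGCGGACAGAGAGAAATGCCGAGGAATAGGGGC

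Each window was searched on both strands for the RUNX letters TGTGGT and TGCGGT and for the ETS letters CCGGAAG, none of which overlap each other. RUNX letters were present in 19.6% and ETS letters in 10.3% of all 35116 promoters in the table. Of the 842 promoters of member symbols, 20.8% held RUNX letters and 8.31% held ETS letters. Neither was found in any of the 7 promoters of called members, which says only that these letters are not in these windows.

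The arrays held together, with correlations between arrays of 0.986 to 0.996. Of 11 B-cell precursor marker genes, 10 were well above background on all 6 arrays, against 2 of 6 T cell, 2 of 5 monocyte, 2 of 4 erythroid and 1 of 5 fibroblast markers. The retained ETV6 probe read 7.92, 8.05 and 8.37 on the control arrays and 7.50, 7.46 and 7.29 on the knockdown arrays (normalised log2 intensity). It was lower by -0.70 ± 0.14 (SE) without passing the test (adjusted p = 0.0513), although the groups did not overlap. The study itself reports silencing of the fusion in REH cells, assessed by western blot for the protein and RT-qPCR for the transcript. The 5 RUNX1 probes differed by -0.26 to 0.03, with adjusted p from 0.509 to 0.945, and whether each probe binds the fusion transcript is not given in the sources used here.

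Of the 2089 members, 1049 (50.2%) were retained, that is, they lay over the negative-control threshold on 2 or more arrays of either group. For 69 of them this held in 1 group alone. A total of 871 members were over the threshold on all 6 arrays and 881 on none. Among coding catalogue probes 69.5% were retained, and among custom lncRNA probes 25.6%. On single arrays the share of members over the threshold was 51.7%, 49.1% and 43.0% in the controls and 49.6%, 50.2% and 49.9% after knockdown. The means were 47.9% ± 4.45 and 49.9% ± 0.264 (SD, n = 3 each), a difference within the spread of the controls (two-sided exact permutation p = 0.7, where 0.1 is the smallest this design allows). Control replicate 3 was the lowest array, and it was also lowest for coding probes and for custom lncRNA probes, as the plot of shares by array shows.

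**Figure D1:**
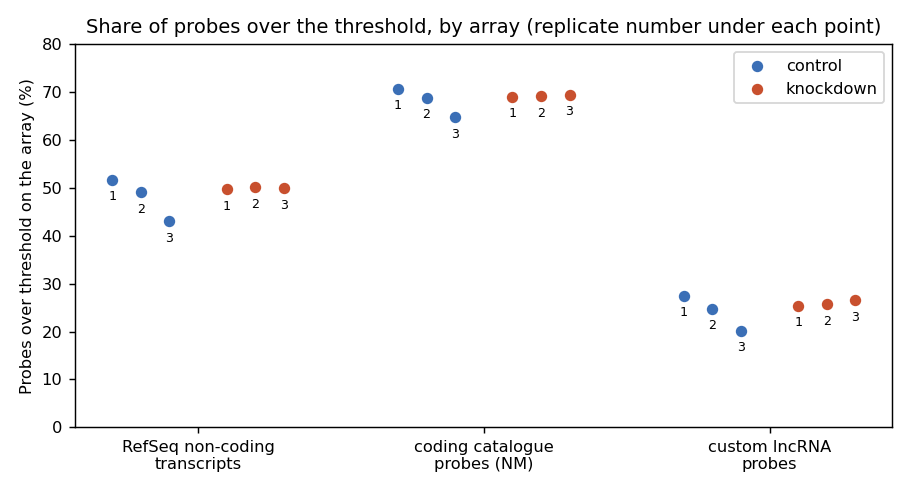
The vertical axis gives the percentage of probes over the negative-control threshold on each array, for the RefSeq non-coding transcripts, the coding catalogue probes and the custom lncRNA probes, with 1 point per array and its replicate number below it. For the non-coding transcripts the points run from 43.0% (control replicate 3) to 51.7% (control replicate 1), and the 3 knockdown arrays lie between 49.6% and 50.2%.

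How often a member was retained differed with its kind. All 14 probes for structural RNAs and 29 of 30 for snoRNAs or scaRNAs were retained. For pseudogene transcripts it was 371 of 625 (59.4%), for non-coding isoforms of coding genes 25 of 39 (64.1%), and for members without a symbol 135 of 243 (55.6%). Antisense, divergent, intronic or overlapping transcripts followed with 203 of 412 (49.3%), other lncRNAs with 129 of 305 (42.3%) and LINC transcripts with 143 of 421 (34.0%). The retained members had a median control level of 7.86 on the normalised log2 scale, with class medians from 7.09 for isoforms of coding genes to 15.2 for structural RNAs. Probes differ in how well they bind, so these levels describe distributions and do not rank transcripts.

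**Figure D2:**
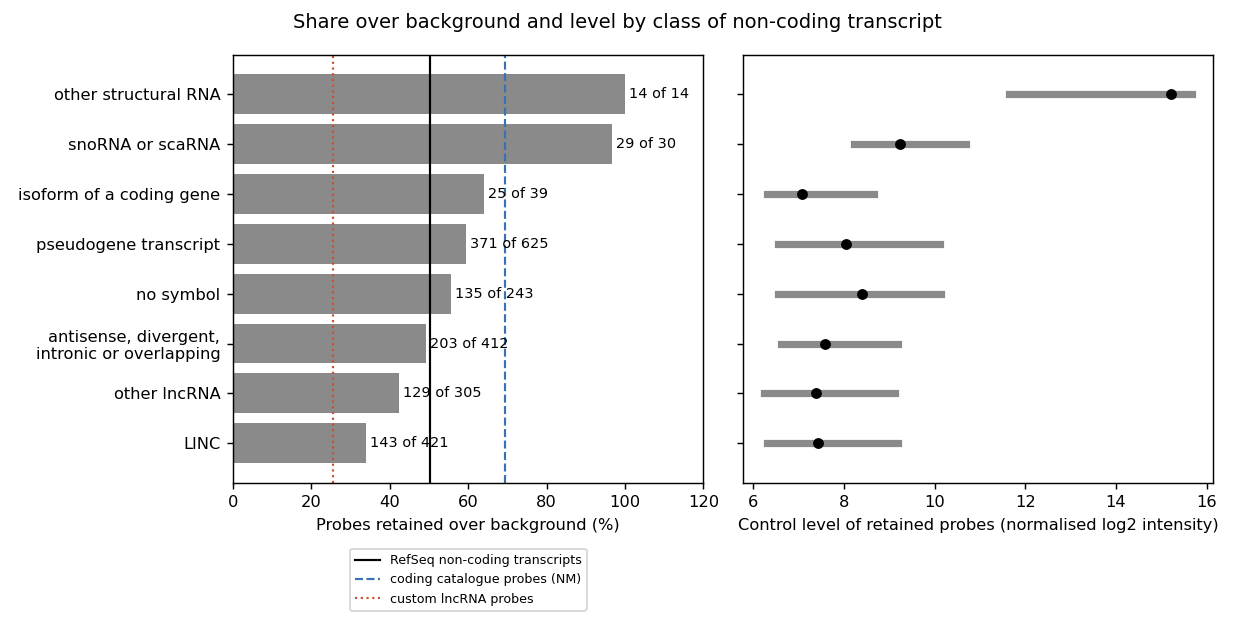
The left panel gives the percentage of probes retained over background for each class of non-coding transcript, with counts beside the bars and lines for all members (50.2%), coding catalogue probes (69.5%) and custom lncRNA probes (25.6%). The right panel gives the control level of the retained probes in normalised log2 intensity, as the median (point) and interquartile range (bar). LINC transcripts had the smallest share, 34.0%, and structural RNAs the highest levels.

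The 25 probes with the highest signal, which is a property of the probe as well as of its transcript, comprised 13 for pseudogene transcripts and 7 for structural RNAs. Among them, 1 of the 28S ribosomal RNA probes (RNA28SN5) read 18.4 after knockdown with a change of 0.02 ± 0.10 (SE), and another read 15.7 in the controls. FAM74A4 stood at 17.9 in both groups. One probe for SNORD3B-1, the U3 snoRNA that guides pre-ribosomal RNA cleavage, stood at 17.1 in the controls and changed by -0.05. Pseudogenes of ribosomal proteins were also among them, such as RPL19P12 (16.6 after knockdown), RPL23P8 (16.5) and RPS2P32 (16.4). Of the 23 ribosomal protein pseudogene probes, 21 were retained, at a median control level of 14.4, and none was called, with changes from -0.21 to 0.17 on the log2 scale. These copies are close to the coding messenger RNA of the parent, and their signal cannot be assigned to the pseudogene from the array alone.

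Most members differed little between the groups. The change (knockdown minus control, log2) was smaller than 0.25 in either direction for 843 of the 1049 retained members (80.4%) and exceeded 0.5 for 42. The median change was -0.01, against 0.00 over all 27490 retained probes, with 563 members lower and 486 higher. The pooled SD within groups had a median of 0.15 and was over 0.5 for 33 members. Groups did not overlap for 193 members (18.4%), against 18.9% of all retained probes.

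A total of 13 members were called at an adjusted p under 0.05 (1.24% of 1049, against 1.74% of all retained probes). Of these, 11 fell (all probes, 1.28%) and 2 rose (all probes, 0.458%), and 5 moved at least 2-fold, all of them lower. The groups did not overlap for any of the 13, as the plot of called members by array shows. With the replicate number as a block, 31 members were called, 21 lower and 10 higher (2.96%, against 3.78% of all probes), and these included all 13. Scaling to the spike-in controls brought the median change of all retained probes from 0.00 to 0.38 and changed the split to 8 lower and 20 higher of 28 called members, so the direction of the small changes given here is relative to the bulk of the probes. All 6 arrays lay on 1 slide. Control replicates 1 and 2 lay in 1 row of it and control replicate 3 in the other, with the 3 knockdown arrays. With the row as a term, which sets the knockdown arrays against control replicate 3 alone, the 11 called members retained through both groups kept their direction (HOXA-AS3 and AQP7P1 were retained through the controls alone). MIAT (-1.80, adjusted p = 0.00617) and AQP7P3 (-0.92, 0.0435) stayed under the threshold, and the other 11 had adjusted p from 0.0565 to 0.398.

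**Figure D3:**
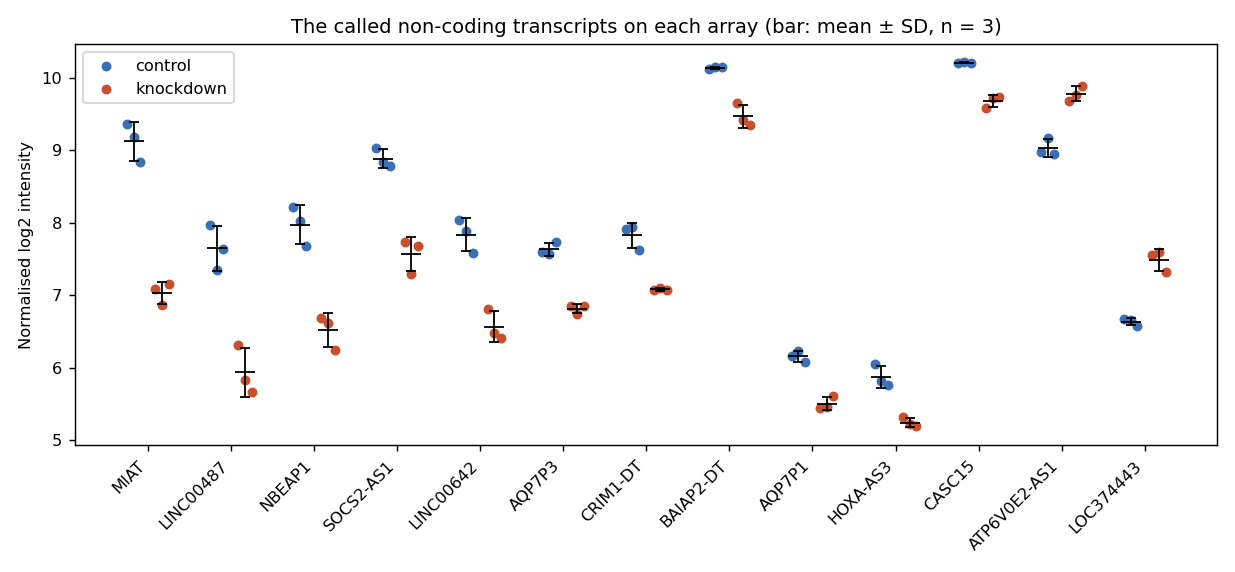
Normalised log2 intensity (vertical axis) of the 13 called non-coding transcripts, with 1 point per array, control and knockdown side by side, and the mean with its SD (n = 3) as bars. The 11 to the left are lower after knockdown, from MIAT (-2.09) to CASC15 (-0.53), and ATP6V0E2-AS1 and LOC374443 are higher, and in none do the groups overlap.

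MIAT (NR_003491), a nuclear lncRNA named for its association with myocardial infarction, had the largest change of the called members. It read 9.36, 9.17 and 8.83 on the control arrays and 7.08, 6.86 and 7.15 on the knockdown arrays. Every knockdown array was thus more than 1 log2 unit under every control array. MIAT fell by 2.09 ± 0.15 (SE), or 4.26-fold (adjusted p = 0.000872), and was called under all 16 alternative settings. On GRCh38.p14 the nearest coding genes were the lens crystallin genes CRYBA4, whose probe was not retained, and CRYBB1, which was lower by -0.45 without passing the test (adjusted p = 0.218).

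LINC00487 (NR_038369), a long intergenic transcript, was measured by a probe reading 7.96, 7.34 and 7.64 in the controls and 6.31, 5.82 and 5.67 after knockdown. The groups lay about 1 log2 unit apart at their nearest values. This probe fell by 1.71 ± 0.21 (SE, adjusted p = 0.00688). A second retained probe for the same accession read 6.34, 6.07 and 6.21 against 6.07, 6.50 and 6.15, overlapped fully and differed by 0.03 (adjusted p = 0.946), so the probes of LINC00487 disagree. Its nearest coding genes, the interferon-inducible CMPK2 and RSAD2, differed by -0.39 and -0.09, neither called.

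LINC00642 (NR_033986) read 8.03, 7.89 and 7.58 in the controls against 6.80, 6.48 and 6.41. The groups were separate, with control replicate 3 nearest to the knockdown arrays. LINC00642 fell by 1.27 ± 0.15 (SE, adjusted p = 0.00706). TTC7B, a coding gene beside it, differed by -0.04 (adjusted p = 0.911).

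CASC15 (NR_015410), a lncRNA beside the transcription factor gene SOX4 that has been studied in B-cell leukemia, had the tightest controls, 10.20, 10.21 and 10.21, against 9.58, 9.72 and 9.74. All knockdown arrays were lower, by about 0.5 log2 units. The fall of 0.53 ± 0.09 (SE) passed the test (adjusted p = 0.0347), but the call was lost whichever array was left out, with adjusted p of 0.102, 0.178 and 0.13 without control replicates 1, 2 and 3 and of 0.0582, 0.118 and 0.1 without knockdown replicates 1, 2 and 3. It was also lost without a filter (0.104), with 75th percentile scaling (0.09) and with spike-in scaling, where the change was -0.18 (adjusted p = 0.551). SOX4 was lower by -0.31 without passing the test (adjusted p = 0.409).

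**Figure D4:**
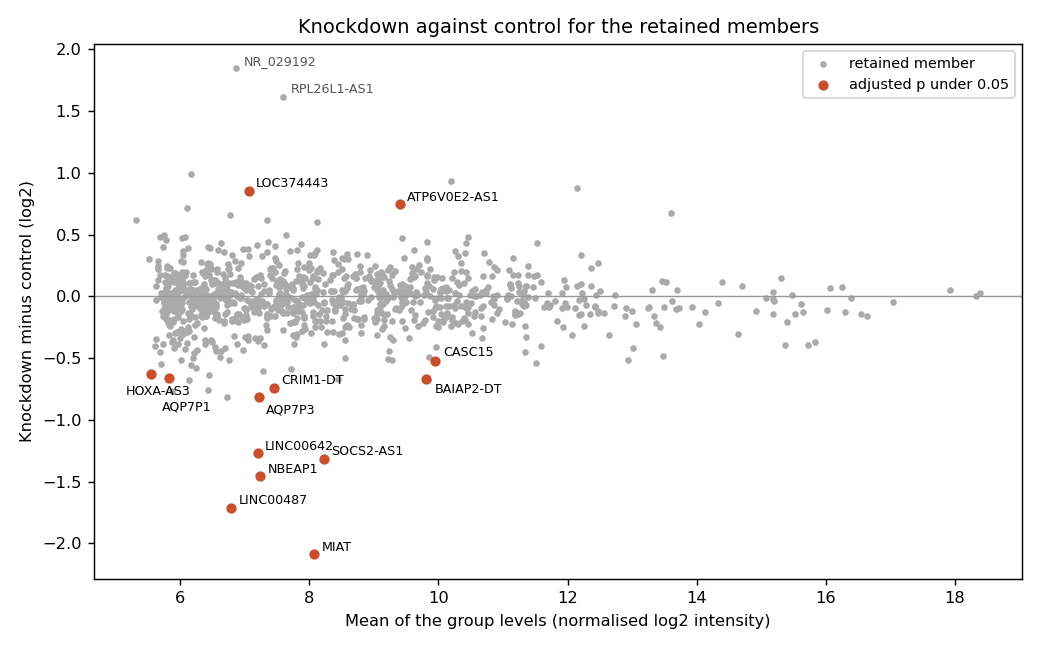
Knockdown minus control on the log2 scale (vertical axis) against the mean of the group levels in normalised log2 intensity (horizontal axis), with 1 point per retained member (n = 1049) and the 13 members with an adjusted p under 0.05 in orange. The called members that fell reach -2.09, while NR_029192 (1.85) and RPL26L1-AS1 (1.62) lie highest and were not called.

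Of the 203 retained antisense, divergent, intronic or overlapping probes 5 were called (2.46%, against 1.74% of all retained probes). SOCS2-AS1 (NR_038263) overlaps SOCS2, whose product is a feedback inhibitor of cytokine signaling through JAK and STAT. It read 9.03, 8.84 and 8.78 in the controls and 7.73, 7.30 and 7.67 after knockdown. SOCS2-AS1 was lower on every knockdown array and fell by 1.32 ± 0.14 (SE, adjusted p = 0.00361). The SOCS2 probe read 13.3, 13.1 and 13.1 against 11.5, 11.2 and 11.3 and fell by 1.82 ± 0.12 (SE, adjusted p = 0.000588). Among pairs in which the symbol of the non-coding RNA names its coding partner, this was the only one called on both sides.

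HOXA-AS3 (NR_038831) runs antisense within the HOXA cluster of developmental transcription factors, overlapping HOXA3 and HOXA5. It read 6.04, 5.81 and 5.76 in the controls and 5.31, 5.22 and 5.19 after knockdown. It was well above background on 2 of 3 control arrays and on no knockdown array, so HOXA-AS3 passed the filter through the controls alone. The difference is a bound of at least 1.43-fold (adjusted p = 0.0334), set by the lowest signal counted as above background, and it was not called without a filter (adjusted p = 0.102) or with normexp and quantile normalization (-0.30, adjusted p = 0.146). A second HOXA-AS3 probe, over the threshold on 2 control arrays and 0 knockdown arrays, also passed through the controls alone and differed by -0.55 (adjusted p = 0.123). HOXA5 fell by 0.51 ± 0.09 (SE, adjusted p = 0.0347) and HOXA3 was lower by -0.16 (adjusted p = 0.548). The call of HOXA5 was lost without control replicate 1 (adjusted p = 0.109), 2 (0.182) or 3 (0.12) and without knockdown replicate 2 (0.154) or 3 (0.109), and with the slide row as a term (0.355). The call of HOXA-AS3 was lost without control replicate 1 (0.087), 2 (0.13) or 3 (0.0763) and without knockdown replicate 2 (0.139) or 3 (0.139).

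CRIM1-DT (NR_037631) and BAIAP2-DT (NR_026857) are divergent transcripts, which start next to a coding gene and run away from it. CRIM1-DT read 7.91, 7.94 and 7.62 against 7.07, 7.10 and 7.07. Control replicate 3 was nearest to the knockdown arrays, and the fall was 0.74 ± 0.11 (SE, adjusted p = 0.0188). BAIAP2-DT read 10.12, 10.15 and 10.14 against 9.65, 9.42 and 9.34. It fell by 0.67 ± 0.11 (SE, adjusted p = 0.0245), while both retained BAIAP2 probes differed by 0.10 and -0.03, and the CRIM1 probe was not retained. The call of CRIM1-DT was lost without control replicate 1 (adjusted p = 0.0653) or 2 (0.107) and without knockdown replicate 2 (0.0844) or 3 (0.0887). That of BAIAP2-DT was lost without control replicate 1 (0.0708), 2 (0.128) or 3 (0.0961) and without knockdown replicate 2 (0.112) or 3 (0.101). Under spike-in scaling neither was called, with CRIM1-DT at -0.50 (adjusted p = 0.190) and BAIAP2-DT at -0.29 (0.375). Without a filter neither CRIM1-DT (adjusted p = 0.0615) nor BAIAP2-DT (0.0779) was called.

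ATP6V0E2-AS1 (NR_027040) overlaps ATP6V0E2, which encodes a subunit of the vacuolar proton pump. It read 8.97, 9.17 and 8.95 in the controls and 9.68, 9.75 and 9.89 after knockdown, higher on every knockdown array. The rise was 0.74 ± 0.11 (SE, adjusted p = 0.0164). ATP6V0E2 itself was higher by 0.50 without passing the test (adjusted p = 0.0784). The call of ATP6V0E2-AS1 was lost without control replicate 1 (adjusted p = 0.0562) or 3 (0.0761) and without knockdown replicate 2 (0.0742) or 3 (0.0768), and without a filter (0.0545).

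Across the class, 171 retained antisense, divergent, intronic or overlapping probes had a retained coding partner named by their symbol (147 genes). The non-coding and coding changes had the same sign in 101 of them, with a Pearson r of 0.36 and a Spearman rho of 0.27 across pairs, which share the same 6 arrays and in part the same partner. The non-coding member was called in 3 pairs (1.75%), beside 1.74% of all retained probes. The coding partners had 209 retained probes, of which 6 were called, 1 in each of 6 genes (2.87%, beside 1.90% of all retained coding probes). CD27, a receptor of the TNF family on lymphocytes, fell by 1.14 (adjusted p = 0.00268), and CD27-AS1, well above background on 1 control and 2 knockdown arrays, differed by -0.07. BAALC, a gene first described in brain and acute leukemia, fell by 1.03 (adjusted p = 0.00633), and BAALC-AS2 differed by 0.17. The protease inhibitor gene A2M fell by 0.57 (adjusted p = 0.0277), with A2M-AS1 at -0.05. GABPB1, a partner of the ETS factor GABPA, fell on 1 of its 2 probes by 0.98 (adjusted p = 0.0167), with GABPB1-AS1 at 0.03 and GABPB1-IT1 at -0.04. The zinc transporter gene SLC39A12 fell by 0.76 (adjusted p = 0.0310). SLC39A12-AS1 had no value on knockdown replicate 2 and was well above background on no knockdown array, so it passed the filter through the controls alone. It was lower by -0.77 ± 0.19 (SE) without passing the test (adjusted p = 0.132, and 0.0476 with the replicate block). Calls among these partners were lost when single arrays were left out for A2M (highest adjusted p, 0.141 without control replicate 2), GABPB1 (0.0917 without control replicate 2) and SLC39A12 (0.151 without control replicate 2). With the slide row as a term, SOCS2 (adjusted p = 0.00785) and CD27 (0.0464) were called, and BAALC (0.0947), GABPB1 (0.114), A2M (0.148) and SLC39A12 (0.355) were not. Whether an antisense probe also binds the coding transcript was not tested. In 14 further cases a member carried the symbol of a coding gene with retained probes, 7 had the same sign and none was called on either side.

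**Figure D5:**
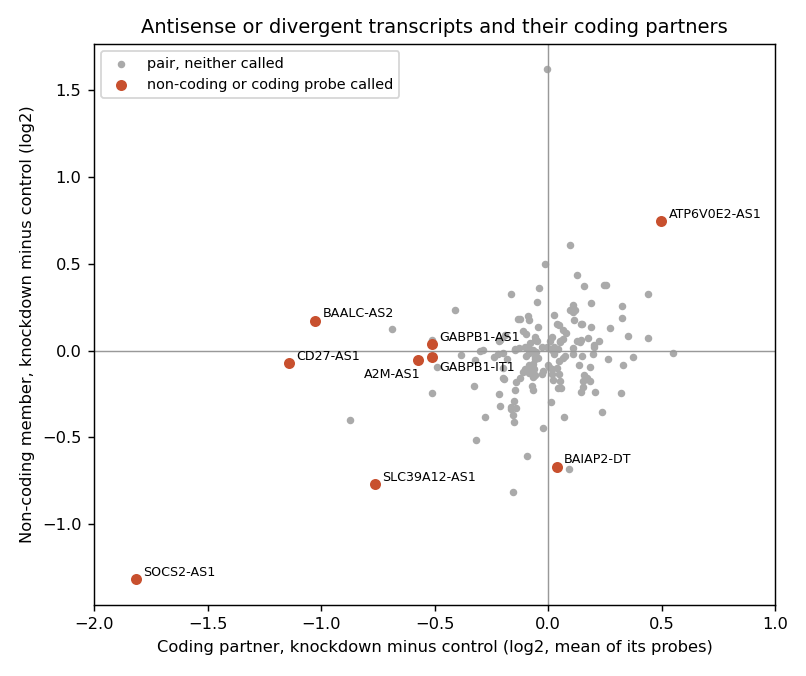
Each point is 1 of 171 antisense or divergent probes, with its own knockdown minus control change (vertical axis, log2) against the mean change of its coding partner's probes (horizontal axis, log2), and pairs with a called probe on either side in orange. SOCS2-AS1 lies at the lower left with SOCS2 (-1.32 and -1.82), while CD27-AS1 and BAALC-AS2 lie near 0 on the vertical axis.

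Among the 371 retained pseudogene probes 4 were called (1.08%, against 1.74% of all retained probes). NBEAP1 (NR_027992), a relative of the neurobeachin gene NBEA, read 8.21, 8.03 and 7.68 in the controls and 6.68, 6.62 and 6.25 after knockdown. The groups were separate by about 1 log2 unit, and NBEAP1 fell by 1.46 ± 0.17 (SE, adjusted p = 0.00612). The NBEA probe differed by -0.10 (adjusted p = 0.796).

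AQP7P3 (NR_026558) and AQP7P1 (NR_002817) are copies of AQP7, the gene of a water and glycerol channel. AQP7P3 read 7.59, 7.57 and 7.73 against 6.85, 6.74 and 6.85 and fell by 0.82 ± 0.10 (SE, adjusted p = 0.00663). AQP7P3 was not called under spike-in scaling (-0.71, adjusted p = 0.12). AQP7P1 read 6.17, 6.23 and 6.08 against 5.45, 5.45 and 5.60. It was well above background on no knockdown array, so it too passed the filter through the controls alone. It was lower by -0.66 (adjusted p = 0.0177), or 1.57-fold with values under the lowest above-background signal raised to that signal. It was not called without a filter (adjusted p = 0.0584) or with normexp and quantile normalization (-0.34, adjusted p = 0.089). Another retained AQP7P1 probe differed by -0.03 (adjusted p = 0.949), and AQP7 itself was well above background on 2 control arrays and on no knockdown array. The call of AQP7P1 was lost without control replicate 1 (adjusted p = 0.0588), 2 (0.112) or 3 (0.0557) and without knockdown replicate 2 (0.0906). These near-identical copies may bind each other's probes, which was not tested, so the member behind each signal is uncertain.

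LOC374443 (NR_002814) is a pseudogene beside CLEC2D, which encodes the ligand of the natural killer cell receptor KLRB1. CLEC2D was also taken as its parent gene, and whether the LOC374443 probe binds CLEC2D transcripts was not tested. LOC374443 read 6.67, 6.66 and 6.58 in the controls and 7.55, 7.60 and 7.31 after knockdown. All knockdown arrays were higher, and the rise was 0.85 ± 0.11 (SE, adjusted p = 0.00857). Without control replicate 2 the adjusted p was 0.0519. Of the 3 CLEC2D probes, 1 rose by 0.74 ± 0.13 (SE, adjusted p = 0.0368) and the brightest differed by -0.08 (0.797). Another was well above background on no control array and passed the filter through the knockdown arrays alone. That probe was higher by 0.54 without passing the test (adjusted p = 0.112, and 0.0315 with the replicate block). The CLEC2D call was lost without control replicate 1 (adjusted p = 0.116) or 3 (0.135) and without knockdown replicate 1 (0.0635), 2 (0.158) or 3 (0.107), and with the slide row as a term (0.145).

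For 161 retained pseudogene probes the parent gene (107 genes) also had a retained probe. The signs matched in 106, with a Pearson r of 0.43 and a Spearman rho of 0.45 across pairs, which share arrays and, in part, sequence. For 21 of these, pseudogenes of ribosomal proteins (13 parents), the signs matched in 17, with a Pearson r of 0.30 and a Spearman rho of 0.325. The median change was -0.07 for these pseudogenes and -0.07 for their parents, so matching signs say little about single pairs.

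The well-known nuclear and cytoplasmic lncRNAs differed little, MIAT apart. Of 19 listed symbols with a member probe, 15 were retained (19 probes), of which 1 (MIAT) was called, beside 1.74% of all retained probes. A total of 14 were lower and 5 higher, where 50.3% of all retained probes were lower, and the median change was -0.09 against 0.00 for all probes. MALAT1, a nuclear speckle RNA, read 10.78, 10.36 and 10.00 in the controls and 10.52, 10.30 and 9.67 after knockdown, and the groups overlapped (-0.21 ± 0.26, SE). NORAD, which binds Pumilio proteins, differed by -0.40 on 1 probe and -0.23 on the other. DANCR read 13.2, 13.2 and 13.3 against 12.5, 12.9 and 13.0 without overlap, but its change of -0.42 did not pass the test. CRNDE, HCG11, OIP5-AS1, EPB41L4A-AS1, FIRRE, JPX, KCNQ1OT1, LINC-PINT, TP53TG1, MEG3 and PVT1 differed by -0.26 to 0.09 and none was called.

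In the HOX clusters 3 probes of 2 symbols were retained. HOXA-AS3 was called on 1 of its 2 retained probes. Both passed the filter through the controls alone, which favors a lower reading after knockdown, so their direction is no separate evidence. HOXA11-AS was lower by -0.35 and not called. Of the blood and leukemia list, 12 probes of 11 symbols were retained (8 lower, 4 higher, median -0.08), and 1 (CASC15) was called, beside 1.74% of all retained probes. LINC00426 read 11.9, 11.6 and 11.6 in the controls and 13.0, 12.2 and 12.5 after knockdown, with no overlap. It was higher by 0.88 ± 0.21 (SE) without passing the test (adjusted p = 0.103), and with the replicate block it did (0.0206). LINC00977 read 9.16, 8.68 and 8.48 against 8.44, 8.02 and 7.85, so that knockdown replicate 1 lay just under control replicate 3. It was lower by -0.67 (adjusted p = 0.218), and with the block its adjusted p was 0.0130. WT1-AS, antisense to the WT1 tumor suppressor gene, was higher on every knockdown array by 0.43 (adjusted p = 0.0679). RUNX1-IT1, which lies within RUNX1, was lower by -0.41 with overlapping groups, and ST7-AS1, PCED1B-AS1, PRKCQ-AS1, LEF1-AS1, DLEU1 and DLEU2L differed by -0.38 to 0.13. Among the imprinted transcripts none of 5 retained probes was called, with KCNQ1OT1 at -0.26, PWAR5 at -0.06 and both MEG3 probes at 0.03 and 0.09. IPW differed by -0.49, where control replicate 3 read 7.77 and the other 5 arrays 6.23 to 6.52. With the slide row as a term, which sets that array alone against the knockdown arrays, IPW was called (-1.40, adjusted p = 0.0162), and a custom probe for the same accession differed by 0.14 (adjusted p = 0.681) without the term.

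The 6 listed RNA-protein machine probes, RMRP and RPPH1 (the RNA subunits of RNase MRP and RNase P), RN7SK, RN7SL1, RNU12 and TERC (the template of telomerase), differed by -0.33 to 0.02, and none was called (lowest adjusted p, 0.604). The 5.8S ribosomal RNA probe (RNA5-8SN5) read 17.1, 15.1 and 14.5 in the controls and 16.3, 14.6 and 14.6 after knockdown. Both replicate 1 arrays were more than 1 log2 unit above the others, and the groups overlapped.

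Of the 29 retained snoRNA and scaRNA probes 26 were lower and 3 higher, with a median of -0.18, and none was called, although 1 (SNORA62) was with the replicate block. Under spike-in scaling the median turned to 0.20, with 7 lower. The mean level of these 29 probes was 10.1, 9.76 and 9.61 on the control arrays and 9.72, 9.55 and 9.62 on the knockdown arrays. The groups overlapped, and replicate 1 was highest in each group. Replicate 1 was the highest array in both groups for 13 of the 29 (44.8%), against 24.1% of all retained members and 24.0% of all retained probes. SCARNA2, for example, read 9.96, 8.84 and 8.89 against 9.94, 8.62 and 8.68. SNORA62, which guides pseudouridine formation in ribosomal RNA, read 10.2, 10.4 and 9.96 against 9.33, 9.90 and 9.29 and was lower by -0.68 (adjusted p = 0.156).

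The members that varied most between replicates were not called without a replicate block. NR_029192, which has no symbol here, read 5.74, 5.86 and 6.24 in the controls and 11.2, 6.19 and 6.02 after knockdown. RPL26L1-AS1 read 6.80, 6.90 and 6.67 against 11.4, 6.85 and 6.97. In both, knockdown replicate 1 alone was high, the remaining arrays overlapped, and the adjusted p was 0.593 and 0.597. LINC-PINT read 8.59 and 8.63 on the replicate 1 arrays and 6.95 to 7.22 on the other 4. BMS1P20 ran the other way, with replicate 1 lowest in both groups (8.95 against 10.1 and 10.1, and 9.56 against 11.2 and 11.2), and was higher by 0.94 in the group means (adjusted p = 0.490). Each knockdown array was above the control array of the same number, and with the replicate block BMS1P20 was called on this probe (adjusted p = 0.0138). A second retained BMS1P20 probe differed by 0.11 (adjusted p = 0.720, and 0.559 with the block).

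The fit with the replicate block added 18 members, 10 lower and 8 higher. LINC00114 read 5.42, 5.78 and 5.81 in the controls and 6.00, 7.04 and 6.94 after knockdown (0.99 on the log2 scale). It was over the threshold on 1 control array and all 3 knockdown arrays, so it passed the filter through the knockdown arrays alone. C1RL-AS1 read 7.24, 7.04 and 7.14 against 6.79, 6.13 and 6.05 (-0.82), and its second retained probe, not called with the block (adjusted p = 0.0951), differed by -0.37. That second probe was over the threshold on 2 control arrays and 1 knockdown array, so it passed the filter through the controls alone. The annexin A2 pseudogene ANXA2P1 (0.48) was higher, as were PSMG3-AS1 (0.60), NR_026779 (0.67) and NR_001557 (0.48). A second retained PSMG3-AS1 probe differed by 0.23 and was not called with the block (adjusted p = 0.261). Another annexin A2 pseudogene, ANXA2P3, read 5.38, 5.59 and 5.71 against 5.83, 6.11 and 6.12, over the threshold on 0 control arrays and 3 knockdown arrays, and was thus retained only through the group in which it was high. STX17-DT (-0.61), PWARSN (-0.54), SPACA6 (-0.59), CTSLP2 (-0.51), FUNDC2P2 (-0.45) and NR_026557 (-0.76) were lower, and the remaining 5 are described above. CTSL, the cathepsin L gene of which CTSLP2 is a copy, fell by 1.84 ± 0.11 (SE, adjusted p = 0.000489). Without the block none of these 18 had an adjusted p under 0.05.

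Accessions with several probes show how far a single probe can be read. Among 125 accessions with more than 1 retained probe, all probes of an accession had the same sign in 68, and the median spread between the highest and lowest change was 0.15. A probe was called for 3 of them (LINC00487, AQP7P1 and HOXA-AS3), and in none were all probes called.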

How the data were processed

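Raw median spot intensities and scanner flags (well above background, outlier, saturated) were deposited for 6 one-color Agilent arrays, extracted, per the file headers, with Agilent Feature Extraction 10.7.1.1. The deposited value table holds log2 values that the authors normalized with VSN and filtered against the negative controls; it was used as an alternative.

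Here, intensities of spots without outlier flags were normalized with the VSN model, written anew in R 4.3.3, and spots of a probe were averaged. A probe was retained if its log2 value exceeded 1.1 times that of the 0.95 quantile of the 308 negative controls on 60% or more (2 of 3) of either group's arrays. This reading of the authors' filter was chosen by how well it matched the 27869 deposited probes; it kept 27490. Knockdown and control were compared over all retained probes with limma 3.58.1 (lmFit and eBayes, two-sided, no block; the study's methods name limma and no block), with Benjamini-Hochberg adjustment over all of them, and a probe was called at an adjusted p under 0.05. The fit was tested on simulated data. The number of arrays (3 a group) limits the precision.

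Members were named through the RefSeq table of GRCh38.p14, which also gave neighboring genes, and classed by symbol and biotype. The members, the gene lists and the tests were chosen with earlier results of these data known, and parent genes of pseudogenes and the replicate 1 values were added after the data were seen. Named were all called members, all retained members of 5 lists (nuclear and widely studied, RNA-protein machines, HOX clusters, blood and leukemia, imprinted), and antisense pairs with a call; the most variable members and those called with the block were named after their values were seen.

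Replicate numbers come from the sample titles. Deviations of same-numbered samples from their group means correlated at 0.43, 0.29 and 0.20 over retained probes, each over 0.1, so the numbers were taken to pair the samples. Control replicate 2 with knockdown replicate 3 (0.19) and control replicate 3 with knockdown replicate 2 (0.17) came close to the lowest of these, so replicates 2 and 3 are hardly told apart, and the blocked fit is given where it changed a result. Alternatives were the scaling (75th percentile, normexp with quantile, spike-in controls), the deposited values, 3 other filters, a trended robust prior, averaging of probes by accession, the replicate block, the slide row and leaving out each array. Custom lncRNA probes and probe sequences were not used beyond the values given. The value of 1 neighboring gene is not reported here.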

Additional observations from a re-analysis of the deposited data

How the results depend on the processing

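The 11 called members retained through both groups kept their direction under each of the 16 alternatives fitted by probe. AQP7P1 and HOXA-AS3 were retained through the controls alone, which favors a lower reading after knockdown, so their direction is no separate evidence. The number of called members (11 lower, 2 higher) became 28 with spike-in scaling (8 lower, 20 higher), 7 without a filter (6 lower, 1 higher) and 8 with the slide row as a term (8 lower, 0 higher in limma, where 28 were higher at an unadjusted p under 0.05), and 4 were higher with a trended robust prior. With the replicate block, that is, with the samples paired by number, 31 members were called (21 lower, 10 higher), and among members the block changed no call but the 18 it added, which are named with the results. Leaving out 1 array gave 7 to 16 called members, 6 to 12 lower and 1 to 4 higher. Over all probes, 478 calls became 918 (spike-in scaling), 224 (no filter), 1038 (replicate block), 227 (slide row) and 191 to 553 (1 array left out). Called members numbered 12 or 13 with the 75th percentile, normexp, deposited values, averaged accessions and the raw-scale filter, which was chosen after seeing the data and retained 1238 members. Of the 13, MIAT, LINC00487, NBEAP1, SOCS2-AS1, LINC00642 and AQP7P3 were called whichever array was left out. The causes were not tested. Members near background have compressed differences, and 1040 of 2089 members were not retained.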
